A study of Mus musculus with 3 samples.

Results

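The platelet-derived growth factor (PDGF) genes, 4 ligand genes (Pdgfa, Pdgfb, Pdgfc and Pdgfd) and 2 receptor genes (Pdgfra and Pdgfrb), were followed through a culture in which interstitial cells of the mouse testis turn into Leydig cells, the androgen-making cells between the seminiferous tubules. The members were chosen by name. They are 6 of the 24698 genes in the merged count table, and all 6 were found in it. The starting cells came from testes of adult C57BL/6 males of 8 to 12 weeks and were sorted for the surface protein SCA1 and against the receptor cKIT. They were plated on Matrigel at 100000 cells per well, recovered for 18 h and expanded for 3 days with 0.5 µM SAG, an activator of hedgehog signaling, and with PDGFAA, PDGFBB and FGF2 at 10 ng/ml each. The differentiation medium that followed kept these factors and added 5 mM LiCl2 and 10 µM DAPT, which blocks Notch signaling. The groups are Day 4, Day 7 and Day 14, with 1 Drop-seq library each. PDGF proteins were thus supplied from outside, and the counts measure only the cells' own transcripts. By these times Day 4 falls close to the change of medium. The paper describes Day 4 cells as 4 days into expansion medium, and Day 7 and Day 14 as 3 and 10 days into differentiation medium. Comparisons of Day 4 with the later days thus span the change of medium, and medium and time cannot be told apart in them. The number of mice behind a library is not given in the sources used here, so no spread between animals can be had.

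PDGF ligands are secreted dimers that bring receptor tyrosine kinases together at the cell surface. PDGFA binds PDGFRA, PDGFB binds both receptors, and PDGFC and PDGFD are released in a latent form that proteases such as tissue plasminogen activator (Plat) and urokinase (Plau) open. In the testis, PDGFA made in the tubules and PDGFRA on interstitial precursors are known for their part in forming Leydig cells, while PDGFRB is best known from pericytes and other mesenchymal cells around vessels.

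Counts are unique molecular identifiers (UMIs), 1 for each captured transcript. Levels are in CPM, the summed UMIs of a gene over those of all genes, scaled to 1000000, with an exact Poisson 95% interval. Shares of cells carry an exact Clopper-Pearson 95% interval. Both cover counting error only. Day 4 held 2980 cells and 12677110 UMIs, Day 7 held 2171 cells and 11627440 UMIs, and Day 14 held 973 cells and 5324400 UMIs. Median depths were 2886.5, 3285 and 3272 UMIs per cell. Shares rise with depth, so they were also taken at equal depth, with 1500 UMIs drawn from every cell. Cells shallower than that, 753, 429 and 179 in the order of days, were then left out. No cell barcode occurred in more than 1 library. Each day is a single library, so day and library cannot be told apart and no test between days was made. As a check of the labels, smooth muscle actin (Acta2) went from 3162 CPM on Day 4 to 97.1 on Day 14, the cycling marker Mki67 from 133 to 22.0, the cholesterol carrier Star from 197 to 1012 and the steroidogenic enzyme Cyp17a1 from 0.158 to 856.

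In the GRCm38 build (GENCODE M21), Pdgfa lies on chromosome 5 from 138976014 to 138997370 on the minus strand and Pdgfra on the same chromosome from 75152292 to 75198215 on the plus strand. Pdgfb lies on chromosome 15 from 79995874 to 80014977, Pdgfc on chromosome 3 from 81036416 to 81214040 and Pdgfd on chromosome 9 from 6168584 to 6378850. Like Pdgfrb, described further on, they are protein-coding. The ligand gene Pdgfa and the receptor gene Pdgfra ran in nearly opposite directions between the cell groups of Day 4 and of Day 7. This was not seen between the cell groups of Day 14. The bases before the start sites of both genes are shown. RefSeq windows on GRCm38.p6 matched 4 of the members. Each window holds the 250 bases before a start, and the stretches are read 5′ to 3′ on the gene's strand, with capitals at GC boxes (GGGCGG or its complement CCGCCC) and E-boxes (CANNTG). Of the upstream Pdgfa window the 157 bases before the annotated UTR are printed.
Pdgfa, chr5:138995038-138995194 (- strand): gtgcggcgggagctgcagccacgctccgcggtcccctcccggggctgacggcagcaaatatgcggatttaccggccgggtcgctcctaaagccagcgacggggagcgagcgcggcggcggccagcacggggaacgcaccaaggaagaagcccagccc
Pdgfa, chr5:138994282-138994531 (- strand): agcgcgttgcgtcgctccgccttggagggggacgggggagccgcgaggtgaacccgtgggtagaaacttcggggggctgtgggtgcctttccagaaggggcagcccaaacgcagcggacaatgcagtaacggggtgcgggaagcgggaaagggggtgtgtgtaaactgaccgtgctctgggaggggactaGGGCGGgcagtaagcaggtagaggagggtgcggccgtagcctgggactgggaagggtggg
Pdgfra, chr5:75152001-75152250 (+ strand): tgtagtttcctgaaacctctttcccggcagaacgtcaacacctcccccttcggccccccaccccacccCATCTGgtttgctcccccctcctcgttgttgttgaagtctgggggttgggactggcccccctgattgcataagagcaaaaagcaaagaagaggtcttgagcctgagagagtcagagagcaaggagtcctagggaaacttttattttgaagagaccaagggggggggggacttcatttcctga

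Both Pdgfa windows lie inside the annotated gene, since other transcripts start farther upstream, and the downstream window holds 86 bases of an exon of another Pdgfa transcript. Their full 250 bases hold 72.4% (upstream) and 66.4% G and C, against 54.4% for Pdgfra and a median of 52.4% over all 32851 windows. The upstream Pdgfa window has 2 GC boxes, neither of them within the bases printed, and the downstream window 1, while the Pdgfra window has none. A GC box stood in 32.7% of all windows. The Pdgfra window has 1 E-box, the kind of site that helix-loop-helix factors can bind, and neither Pdgfa window has a match. E-boxes stood in 66.2% of all windows. No match to the AP-1 letters TGANTCA (6.75% of windows) or to TATAAA (12.4%) was present in these 3 windows. Both strands were searched, and these matches describe letters only.

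Pdgfa, the ligand of PDGFRA, was highest on Day 7 and lowest on Day 14. It gave 1140, 2356 and 156 UMIs in the order of days, or 89.9 (84.8–95.3), 202.6 (194.5–211.0) and 29.3 (24.9–34.3) CPM. The 3 intervals do not overlap. The level on Day 7 was 2.25 times that of Day 4 (exact 95% interval 2.10–2.42), and the level on Day 14 was 6.92-fold lower than on Day 7 (5.88–8.19). The share of cells with a Pdgfa UMI after thinning moved alike, at 11.8%, 22.8% and 5.29%. Positive cells also held more copies on Day 7: 502 of its 978 positive cells had at least 2 UMIs before thinning, against 248 of 685 on Day 4 and 27 of 117 on Day 14.

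**Figure D1:**
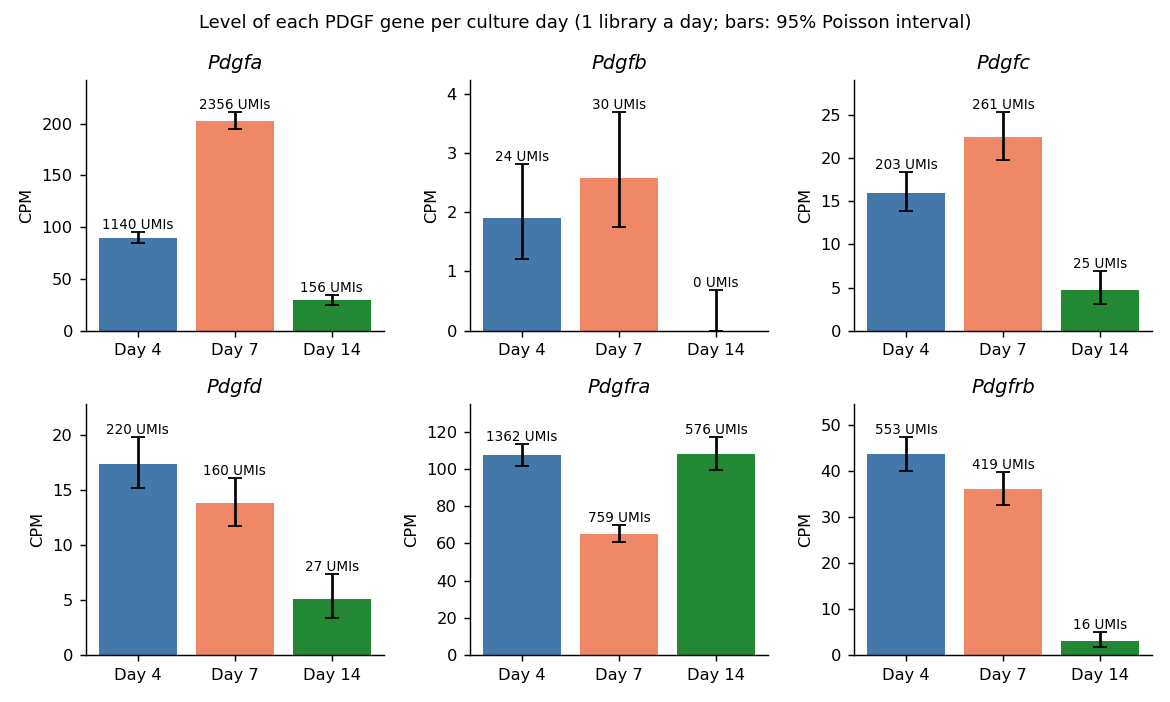
Level of each PDGF gene on Day 4, Day 7 and Day 14 in CPM (vertical axes start at 0 and differ between genes), with exact Poisson 95% intervals as bars and the UMIs behind each level printed above. Pdgfa peaks on Day 7 at 202.6, Pdgfra is lowest on Day 7 at 65.3, and Pdgfrb falls to 3.01 on Day 14.

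Pdgfc and Pdgfd, the latent ligands, were seen in fewer UMIs and were also lowest on Day 14. Pdgfc gave 203, 261 and 25 UMIs (16.0, 22.4 and 4.70 CPM), a 4.78-fold lower level on Day 14 than on Day 7 (3.17–7.52). With equal weight per cell, Pdgfc on Day 14 was 0.130 times Day 7, against 0.209 from the pooled UMIs. Pdgfd gave 220, 160 and 27 UMIs (17.4, 13.8 and 5.07 CPM), 2.71-fold lower on Day 14 than on Day 7 (1.80–4.25). Between Day 4 and Day 7 the pair differed in direction, Pdgfc at 1.40 times (1.16–1.69) and Pdgfd at 0.793 times (0.643–0.976) the earlier level. Most positive cells held a single copy of either gene, for example 164 of 203 Day 7 cells with Pdgfc.

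Pdgfb was close to absent from the culture's own transcripts. It gave 24 UMIs in 20 cells on Day 4, 30 UMIs in 26 cells on Day 7 and 0 UMIs in the 973 cells of Day 14, which allows up to 0.308% of cells with a UMI and a level of up to 0.563 CPM. This limits cells with a UMI, not cells that express the gene. Set against that limit of 3 counts, Day 7 was at least 4.58-fold higher than Day 14, and the exact interval of the ratio, which adds the counting error of Day 7, begins at 3.50. The Day 4 counts were concentrated: 13 of the 24 UMIs, or 54.2%, lay in a cluster of 42 Day 4 cells that made up 1.41% of the library. This cluster (number 11 of 12, 66 cells over all days) was led by Lyz2, Ctss, Tnp1 and Prm1, had 4 of 9 macrophage, 4 of 7 endothelial, 3 of 6 germ cell and 5 of 8 Leydig markers at 1.5 times the level of the other cells or more, and was given no name. Pdgfb stood at 58.2 CPM in it (31.8–97.6) and at 1.36 CPM in the other cells (0.972–1.85). PDGFB is a classical endothelial product, and the summed endothelial list held 90.1 CPM on Day 4, 120.1 on Day 7 and 36.6 on Day 14, with Vwf, Tie1 and Esam at 0 on Day 7 and Pecam1, Tie1 and Esam at 0 on Day 14. This sum does not measure endothelial cells. It reached 121.6 CPM in cluster 3, where only 1 of the 7 markers had at least 10 UMIs. On Day 7, 21 of the 30 UMIs instead lay in cluster 6, a matrix myofibroblast-like cluster described further on, with a median depth of 8808 UMIs per cell. As levels, Pdgfb stood at 3.65 CPM in cluster 6 (2.26–5.57) and at 3.74 in cluster 9 (1.21–8.73). These did not differ beyond counting error. The part of cells with any of these marker lists in the Pdgfb counts was not tested.

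The receptors differed. Pdgfrb is the only member on chromosome 18 (61045150 to 61085061, plus strand). Pdgfra gave 1362, 759 and 576 UMIs, or 107 (102–113), 65.3 (60.7–70.1) and 108 (99.5–117) CPM. The dip on Day 7 was 1.65-fold below Day 4 (1.5–1.80), and Day 14 over Day 4 was 1.01 (0.912–1.11). Thinned shares of cells with a Pdgfra UMI were 14.2%, 9.82% and 14.7%. Pdgfrb gave 553, 419 and 16 UMIs, or 43.6 (40.1–47.4), 36.0 (32.7–39.7) and 3.01 (1.72–4.88) CPM. Its level on Day 14 was 12.0-fold below Day 7 (7.30–21.2), and thinned shares were 5.84%, 5.68% and 0.378%. The receptor UMIs thus shifted in makeup: Pdgfra supplied 71.1% of them on Day 4 (69.0–73.1), 64.4% on Day 7 (61.6–67.2) and 97.3% on Day 14 (95.6–98.4).

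Levels of cell type markers moved with members. The 7 interstitial progenitor markers summed to 1520, 740.1 and 1534 CPM, with the dip of Pdgfra on Day 7, and the 7 matrix myofibroblast markers to 2729, 4882 and 1301 CPM, with Day 7 highest as for Pdgfa. None of either list was at 0. Clusters 7 and 8, described further on, held 519 and 426 of the 973 Day 14 cells. In these clusters 1 and 0 of the 7 progenitor markers were raised over the other cells, with median log2 ratios of 0.17 and −0.62. The Day 14 sum thus does not show a return of most of these markers. The part of either list in the Pdgfra and Pdgfa levels was not tested. The summed list of 8 pericyte and smooth muscle markers (Rgs5, Notch3, Cspg4 and others) stood at 153.5, 149.0 and 19.5 CPM from Day 4 to Day 14, with 8, 6 and 3 of the 8 above 3 UMIs and none at 0. The contractile myofibroblast list stood at 7544, 6384 and 503.2. Their part in the lower Pdgfrb level of Day 14 was not tested, and fewer positive cells and less RNA per cell cannot be told apart in the summed levels. The 66 cells of the mixed cluster 11 (42 of Day 4, 21 of Day 7 and 3 of Day 14) gave a coarse comparison. They have markers of their own, so they cannot measure free RNA, which was not tested. Their median depth was 2387.5, against 3076 for the other cells. After thinning, a UMI was seen in 2 of 51 cells for Pdgfa (3.92%, 0.478–13.5%) and in 2 for Pdgfra. It was seen in 1 each for Pdgfc and Pdgfd and in none for Pdgfrb. The shares of Pdgfa on Day 7 and of Pdgfra on Day 4 and Day 14 lie above these wide intervals, and the other shares within them. As levels, the cluster held 45.7 CPM of Pdgfa (22.8–81.8), 20.8 of Pdgfra (6.75–48.5) and 4.16 of Pdgfrb (0.105–23.2). Pdgfra on each day, and Pdgfa and Pdgfrb on Day 4 and Day 7, lie above these. The Day 14 levels of Pdgfa and Pdgfrb and all levels of Pdgfc and Pdgfd lie within its intervals. The Day 14 share of Pdgfa was also unsteady, at 3.53% with a second random thinning.

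Set against all genes with at least 20 UMIs over both days, 1 of the 6 members was at least 2-fold higher on Day 7 than on Day 4 (Pdgfa) where 5.39% of 12954 genes were, and 0 were 2-fold lower where 4.33% were. From Day 7 to Day 14, 5 of 6 members were at least 2-fold lower where 16.6% of 12656 genes were, and 0 were higher where 12.4% were. From Day 4 to Day 14 the same count of 5 were lower where 17.6% of 12712 genes were, and 0 were higher where 16.3% were. The median log2 ratio of the members was 0.09, −2.52 and −1.77 in these comparisons (−2.23 and −1.76 for the last pair with Pdgfb at its bound), and that of all genes 0.10, −0.14 and −0.05. The comparisons share libraries, and the members that were lower on Day 14 were Pdgfa, Pdgfb, Pdgfc, Pdgfd and Pdgfrb in both.

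**Figure D2:**
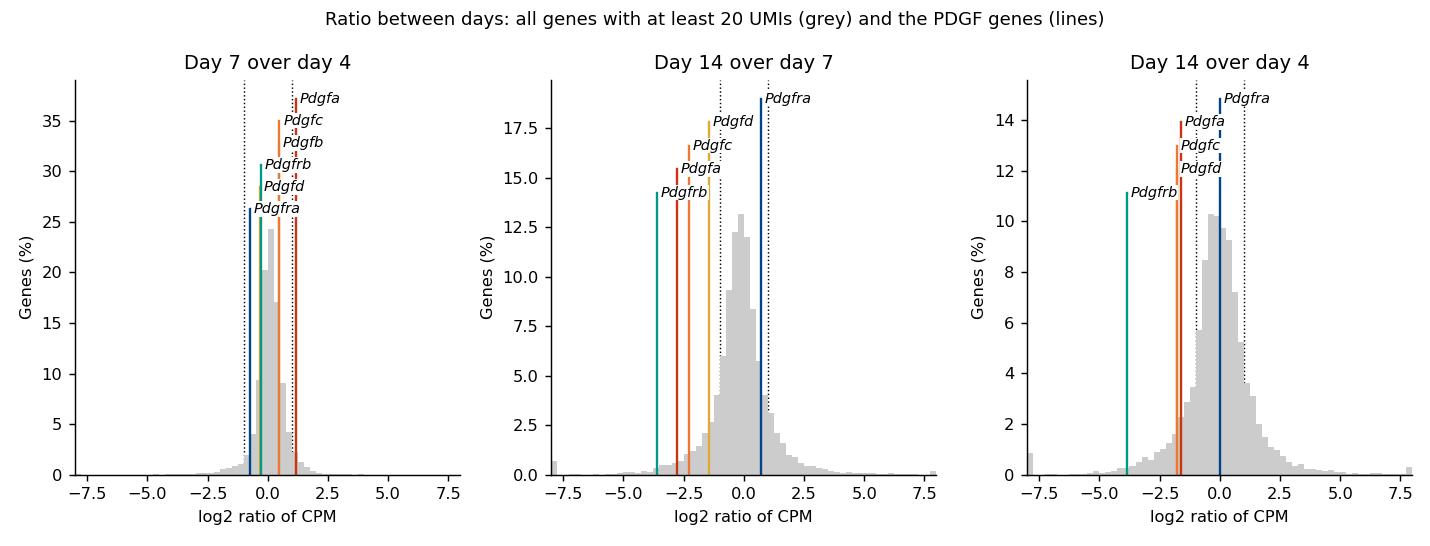
Distribution of the log2 ratio of CPM between days over all genes with at least 20 UMIs (grey, percent of genes, genes at 0 on 1 of the days in the outermost bins), with the PDGF genes as lines and the 2-fold limits dotted. Pdgfb has no line where Day 14 held 0 UMIs. Between Day 7 and Day 14, Pdgfra at 0.73 is the only PDGF line right of 0.

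Genes that act around the PDGF ligands and receptors were read from 4 lists, of which 41 of 42 genes were in the table. From Day 4 to Day 7, 1 of 37 genes with enough UMIs was at least 2-fold higher and 3 were lower. From Day 7 to Day 14 the counts were 0 higher and 8 lower of 36, and from Day 4 to Day 14 they were 2 higher and 8 lower of 37. Over all genes, 5.39% were higher and 4.33% lower in the first comparison. These shares were 12.4% and 16.6% in the second and 16.3% and 17.6% in the third. Median log2 ratios of the listed genes were 0.03, −0.41 and −0.25, close to those of all genes on the first comparison and below them on the others.

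Among genes that process or bind the ligands, Plat, the activator of PDGFC, stood at 67.4, 55.2 and 8.08 CPM, 6.84-fold lower on Day 14 than on Day 7 (5.02–9.54). Plau, which activates PDGFD, instead dipped on Day 7 (32.3, 15.5 and 29.5 CPM). Thrombospondin 1 (Thbs1), a matrix protein, went from 418 and 488 CPM to 9.58, 51.0-fold lower (38.7–68.6). Sparc, which binds PDGF, stayed within 2-fold at 9710.5, 11681 and 13148 CPM, as did Pdgfrl, the receptor-like gene, at 12.5, 21.4 and 22.9 and the coreceptor Nrp1 at 239, 170 and 152.

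Of 16 adaptor and kinase genes, 0 passed 2-fold between Day 4 and Day 7, where 5.39% of all genes were higher and 4.33% lower. On Day 14, 2 were lower than on Day 7, where 16.6% of all genes were. These were Rasa1, the Ras GTPase-activating protein that docks on PDGFRB, at 101, 179 and 37.8 CPM, 4.75-fold lower (4.10–5.51), and the adaptor Nck1, 2.39-fold lower on Day 14 than on Day 7 (69.7 CPM on Day 4 and 95.5 on Day 7). The phosphatase Ptpn11 (SHP2) was 2.15-fold lower on Day 14 than on Day 4 (1.98–2.34), with 275, 217 and 128 CPM, and the adaptor Grb2 kept 166, 165 and 149. None of 5 receptor turnover genes passed 2-fold in any comparison, where 4.33% to 17.6% of all genes did in a given direction. The ubiquitin ligase Cbl, for example, stood at 12.1, 9.55 and 9.95 CPM.

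Of 6 relatives of the ligands and receptors with enough UMIs, 4 were lower on Day 14 than on Day 7, where 16.6% of all genes were. The median log2 ratio of the 6 was −2.53 (−1.64 with genes at 0 put at their bound). Pgf, placental growth factor, gave 641, 283 and 0 UMIs, so Day 7 was at least 43.2-fold higher than Day 14 against a limit of 3 counts, with the exact interval of the ratio beginning at 34.9. Vegfc went from 11.04 to 30.7 CPM between Day 4 and Day 7, as Pdgfa did, and stood at 2.82 on Day 14. Vegfa went from 108 and 92.0 to 30.2 CPM, while Vegfb was the exception among these growth factors and went from 31.8 and 42.7 to 80.0, 2.52 times Day 4 (2.19–2.89). The related receptor genes were scarce: Kdr gave 19, 2 and 0 UMIs, Flt1 gave 25, 21 and 0, and Kit, whose product the sort had selected against, gave 10, 1 and 11. Kit on Day 14 was 2.62 times the level of Day 4 (1.01–6.88).

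To place the genes in cells, the 6124 cells were clustered without the PDGF genes, the listed genes or the markers, and levels were read in the 13 combinations of cluster and day with at least 50 cells. Clusters 1 and 2 of Day 4 were contractile myofibroblast-like, with 8 and 4 of 8 markers raised, and were also led by interferon-response genes such as Isg15 and Ifi27l2a. Clusters 4 (led by Cenpf and Cdc20) and 9 (Ccne2, Rrm2) were proliferating-like and spanned Day 4 and Day 7. Cluster 6 of Day 7 was matrix myofibroblast-like (6 of 7 markers, with Mgll, Ltbp2 and Tnc leading), and cluster 8 of Day 14 was Leydig-like (8 of 8 markers, Cyp17a1 and Insl3 leading). Clusters 3 (Grem1, Postn), 5 (Lrrc17, Igfbp3, Penk), 7 (Slc38a5, Mmp2, Apoe) and 10 (Eln, Mfap4, Cilp) are called by number. In clusters 5 and 10, 4 of the 7 markers of interstitial progenitors were raised, and in cluster 7 only 2 of the 8 Leydig markers.

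Pdgfa and Pdgfra were high in different clusters. On Day 4, Pdgfa stood at 131 CPM in cluster 1 (122–141), 89.5 in cluster 9, 78.7 in cluster 2, 57.3 in cluster 4, 35.4 in cluster 5 and 32.8 in cluster 10. The neighbours 9 and 2 and the neighbours 5 and 10 did not differ beyond their counting error. Pdgfra ran nearly the other way, with 303 CPM in cluster 10 (238–381), 181 in cluster 4, 130 in cluster 5, 99.6 in cluster 9, 74.4 in cluster 2 and 73.6 in cluster 1. Here clusters 9 and 2 and clusters 2 and 1 did not differ, and cluster 10 was 4.12-fold above cluster 1 (3.17–5.29).

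On Day 7, Pdgfa stood at 239 CPM in cluster 6 (226–252), 224 in cluster 3, 194 in cluster 9 and 191 in cluster 4, with no neighbours in this order apart beyond counting error, whereas cluster 10 held 44.0 (32.2–58.6), 5.43-fold less than cluster 6 (4.05–7.46). Pdgfra was highest in cluster 10 at 184 CPM (159–212), followed by clusters 4 (84.0) and 9 (77.1), which did not differ, and clusters 3 (41.5) and 6 (39.2), which did not differ either. Pdgfa was also among the 10 leading genes of cluster 3 against the cells of all days, although it took no part in the clustering. Of the 724 cells of cluster 3, 694 were of Day 7. Within that day its Pdgfa level was not apart from that of clusters 6, 9 or 4 beyond counting error.

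On Day 14 only 2 clusters had 50 cells, and the receptor split them. Pdgfra stood at 195 CPM in cluster 7 (176–217, 357 UMIs) and at 56.9 in the Leydig-like cluster 8 (49.1–65.6, 189 UMIs), 3.43-fold apart (2.87–4.12). Thinned shares of cells were 22.8% and 7.26%, and median depths were 2137 and 5575.5 UMIs per cell. Pdgfa did not differ between them beyond counting error (33.4 and 25.6 CPM). Pdgfrb was low in both, with 9 and 6 UMIs.

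**Figure D3:**
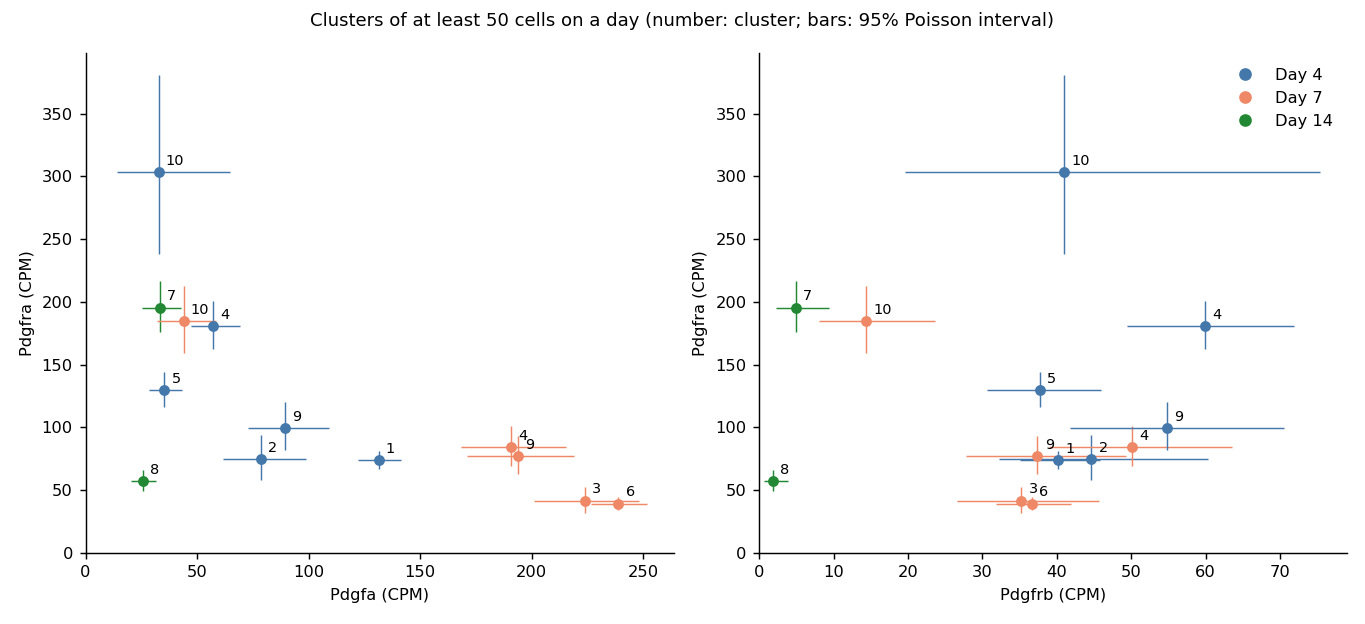
Pdgfra against Pdgfa (left) and against Pdgfrb (right) in CPM, 1 point for each of the 13 combinations of cluster (number) and day (colour) with at least 50 cells, with exact Poisson 95% intervals as bars. Points with Pdgfa above 150 lie below 100 in Pdgfra, and both Day 14 points lie at the left edge of the Pdgfrb panel.

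Pdgfrb varied less between clusters within a day. On Day 4 it ranged from 37.7 CPM in cluster 5 to 59.9 in cluster 4 (49.5–71.9), and on Day 7 from 35.2 in cluster 3 to 50.1 in cluster 4, with cluster 10 lower at 14.3 (8.02–23.6). Pdgfc, a ligand of PDGFRA too, stood highest in cluster 6 of Day 7 at 30.04 CPM (25.7–34.9), and on Day 4 at 22.0 in cluster 1 and 23.4 in cluster 2 against 5.77 in cluster 5. Over the 13 points, log2 levels of Pdgfa had a Pearson r of −0.68 with Pdgfra, 0.81 with Pdgfc and 0.54 with Pdgfrb. For Pdgfc and Pdgfra r was −0.72, and for the receptors with each other it was −0.03. These describe 13 points that come from only 3 libraries and share them.

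The genes most like each member over these points, among 8128 genes with at least 300 UMIs, were named by the highest r. For Pdgfa they were Aldh1a3, a retinoic acid-making enzyme (0.98), Cyb5r1 (0.97), the lipase Mgll (0.95), the latent TGF-beta binding protein gene Ltbp2 (0.94) and Tes (0.94). For Pdgfra they were the peroxiredoxin Prdx4 (0.92), Nrk (0.92), the hedgehog coreceptor Gas1 (0.91), Igsf10 (0.91) and Stard8 (0.90). For Pdgfrb they were Pcdh18, Sept7, S100a4, Cetn3 and Nras (0.97 to 0.98), for Pdgfc Golt1b, Slc20a1, Mgat1, Eif5 and Mthfd2 (0.91 to 0.93), and for Pdgfd Sdc1, 1110037F02Rik, Abl2, Copb2 and Sec63 (0.90 to 0.93).

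The higher Pdgfa level of Day 7 over Day 4 was also present inside the proliferating-like clusters, the places where both days were well filled. In cluster 4 its level was 57.3 on Day 4 and 191 on Day 7, 3.33 times as high (2.65–4.2), and in cluster 9 it was 89.5 and 194, 2.16 times as high (1.71–2.76). In cluster 10 it was 32.8 and 44.0 with a ratio of 1.34 (0.627–3.29). Pdgfra was lower on Day 7 in cluster 4 (181 to 84.0, ratio 0.465, 0.373–0.576) and in cluster 10 (303 to 184, ratio 0.608, 0.463–0.807), with a ratio of 0.774 (0.585–1.02) in cluster 9. Pdgfd was likewise lower in clusters 4 (0.485, 0.229–0.957) and 9 (0.409, 0.187–0.851).

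Members were also read in cells with and without a UMI of a culture marker. On Day 4, Pdgfra stood at 103 CPM in the 2629 cells with an Acta2 UMI and at 166 in the 351 cells without, a ratio of 0.620 (0.520–0.745), and on Day 7 the ratio was 0.455 (0.38–0.549). Pdgfa had ratios of 2.04 (1.48–2.90) and 2.07 (1.72–2.52) on those days. Acta2-positive cells are deeper, but after thinning the ratios for Pdgfra were 0.460 and 0.416, and those for Pdgfa 1.80 and 1.72. On Day 14 the direction for Pdgfra was turned: the 90 cells with Acta2 held 155 CPM and the 883 cells without held 101, a ratio of 1.54 (1.24–1.89), although after thinning only 46 positive cells remained and the interval was 0.919–3.16.

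Cells of Day 4 with an Mki67 UMI held more receptor. The proliferating-like clusters of that day differed in Pdgfra, with 181 CPM in cluster 4 and 99.6 in cluster 9. Pdgfra stood at 147 CPM in the 437 cells with Mki67 and at 97.2 in the 2543 cells without (ratio 1.51, 1.34–1.70; thinned 1.66), and Pdgfrb at 54.1 and 40.9 (ratio 1.32, 1.082–1.60; thinned 1.94). On Day 7 the Pdgfra ratio was 1.45 over all UMIs and 0.980 after thinning (0.592–1.55), so it did not hold at equal depth. Steroidogenic cells of Day 14 held less. Pdgfra stood at 67.9 CPM in the 242 cells with Cyp17a1 and at 133 in the 731 cells without (ratio 0.509, 0.417–0.617; thinned 0.336), and with Star the ratio was 0.585 (0.483–0.711; thinned 0.571). Pdgfa stood at 28.3 and 29.9 CPM with and without Cyp17a1 (ratio 0.946, 0.672–1.32), and at 25.6 and 48.3 CPM with and without Star (0.529, 0.369–0.773), where the thinned ratio was 0.851 (0.449–1.61).

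**Figure D4:**
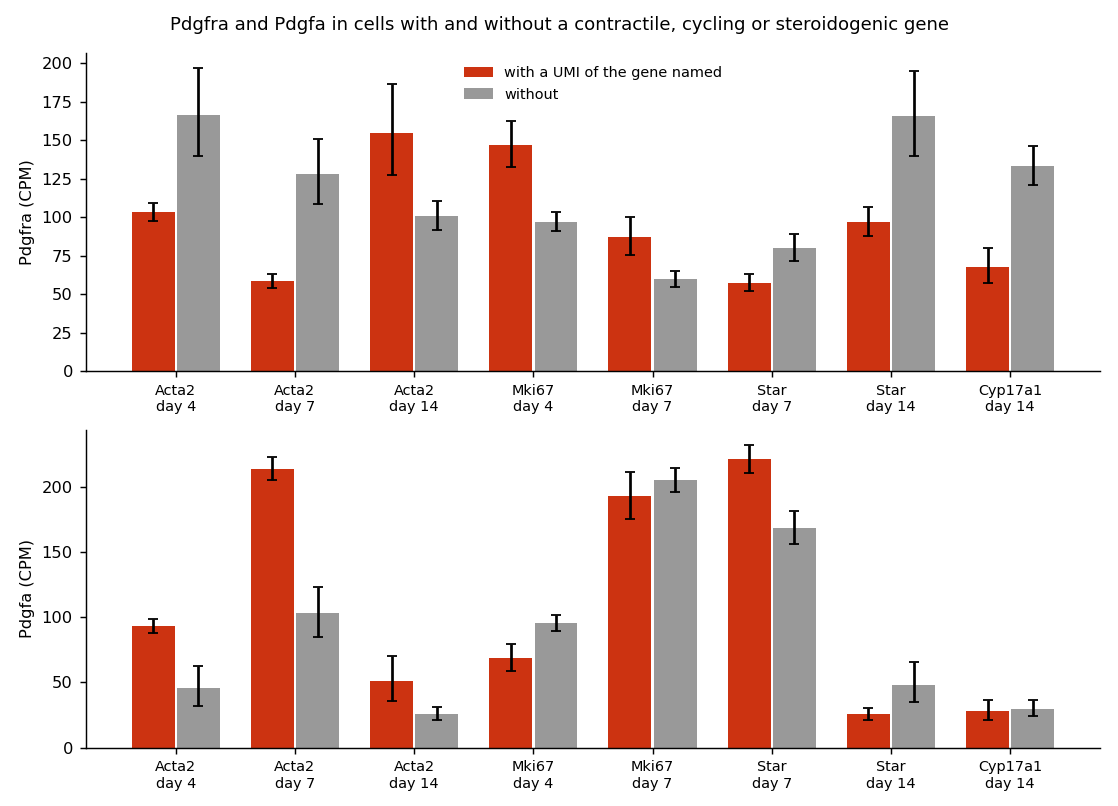
Level of Pdgfra (top) and Pdgfa (bottom) in CPM in cells with (red) and without (grey) a UMI of Acta2, Mki67, Star or Cyp17a1 on the day named, with exact Poisson 95% intervals as bars. On Day 4 and Day 7, Acta2 goes with lower Pdgfra and higher Pdgfa, and on Day 14 Cyp17a1 goes with lower Pdgfra (67.9 against 133).

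Ligand and receptor were seen together in single cells on every day, at rates that depended on depth. Over all UMIs, 405 of 2980 cells of Day 4 (13.6%) held at least 1 ligand and 1 receptor UMI, 438 of 2171 cells of Day 7 (20.2%) and 78 of 973 cells of Day 14 (8.02%). At 1500 UMIs per cell these were 57 of 2227 (2.56%), 59 of 1742 (3.39%) and 5 of 794 (0.630%). At that depth cells with a ligand only made up 13.7%, 22.4% and 5.54%, and cells with a receptor only 16.5%, 11.5% and 14.5%. On Day 7 the ligand-only cells were thus more numerous than the receptor-only cells, and on Day 14 the receptor-only cells were (intervals 12.1–17.1% against 4.06–7.37%).

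For Pdgfa and its receptor Pdgfra, the share and the level pointed in opposite directions. Over all UMIs a Pdgfra UMI was seen in 33.0% of 685 cells with Pdgfa and 26.8% of 2295 without on Day 4, in 25.7% of 978 and 20.5% of 1193 on Day 7, and in 47.0% of 117 and 29.4% of 856 on Day 14. Cells with a Pdgfa UMI were deeper, with medians of 5617 against 2380 UMIs on Day 4, 6206 against 2128 on Day 7 and 7649 against 2975.5 on Day 14. The pooled level of Pdgfra, which accounts for depth, was lower in the cells with Pdgfa: 86.2 against 120 CPM on Day 4 (ratio 0.721, 0.640–0.811), 48.3 against 99.7 on Day 7 (0.484, 0.419–0.560) and 101 against 110 on Day 14 (0.917, 0.744–1.12).

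After thinning, the shares of Day 4 and Day 7 lay on the side of the level. Pdgfra was seen in 29 of 262 cells with Pdgfa and 288 of 1965 without on Day 4 (11.1% and 14.7%, a difference of −3.59 points, −7.48 to 1.11). On Day 7 it was seen in 26 of 397 and 145 of 1345 (6.55% and 10.8%, −4.23 points, −7.08 to −0.916), and on Day 14 in 4 of 42 and 113 of 752 (−5.50 points, −12.9 to 7.83). Of these, the Day 7 interval leaves out 0, but with a second random thinning the Day 7 difference was −2.86 points (−5.60 to 0.291) and that of Day 4 was −4.93 (−8.82 to −0.202). On Day 14 thinning to 1000 UMIs gave 7.56 points (−5.63 to 29.7), so no direction can be read there. In the largest cluster of Day 7, cluster 3, the difference was 2.71 points (−2.34 to 9.28), with 10 of 125 cells with Pdgfa and 18 of 340 without.

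**Figure D5:**
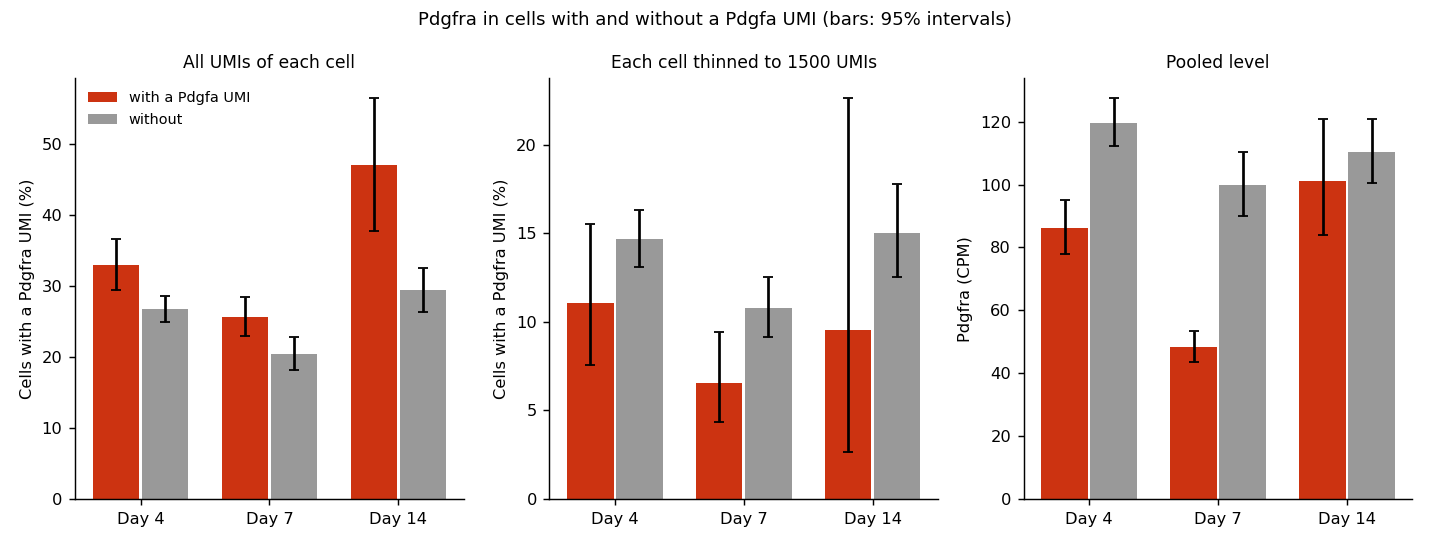
Cells with a Pdgfra UMI among cells with (red) and without (grey) a Pdgfa UMI on each day, in percent, over all UMIs (left) and after thinning each cell to 1500 UMIs (middle), and the pooled Pdgfra level in CPM (right); bars are 95% intervals. Over all UMIs the red bars are higher on each day (33.0, 25.7 and 47.0%), and in the other panels they are lower, with overlapping intervals on each day in the middle panel and on Day 14 at the right.

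Within clusters the pooled level of Pdgfra in cells with and without Pdgfa lay closer together in some. It was 69.2 and 78.6 CPM in cluster 1 of Day 4, 184 and 180 in cluster 4 of Day 4, 44.4 and 39.1 in cluster 3 of Day 7 and 38.8 and 41.7 in cluster 6 of Day 7. It lay farther apart in clusters 2 and 5 of Day 4, with 27.2 and 80.7 and with 93.6 and 137, and in the Day 7 cells of clusters 4, 9 and 10, with 66.3 and 114, 63.1 and 106, and 109 and 208. In the Leydig-like cluster 8 it was 73.6 and 51.3. These levels carry no intervals, and in cluster 2 of Day 4 only 3 of the 66 cells with Pdgfa held a Pdgfra UMI. Both genes were seen in 129 of 568 cells of cluster 6 (22.7%) and in 129 of 906 cells of cluster 1 of Day 4 (14.2%), and after thinning in 9 of 568 and 14 of 889.

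Pdgfrb was spread over cells with and without Pdgfa. At equal depth it was seen in 12 of 262 and 118 of 1965 on Day 4 (4.58% and 6.01%, −1.42 points, −3.90 to 2.01), in 28 of 397 and 71 of 1345 on Day 7 (7.05% and 5.28%, 1.77 points, −0.898 to 4.96) and in 0 of 42 and 3 of 752 on Day 14. The pooled level of Pdgfrb in cells with over that in cells without Pdgfa was 0.951 (0.795–1.14) on Day 4 and 1.22 (0.980–1.51) on Day 7. Both intervals hold 1. On Day 7 the Pdgfa-positive cells carried 71.1% of the Pdgfrb UMIs but 49.5% of the Pdgfra UMIs, beside 67.0% of all UMIs of the day.

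Cells with both receptors were 22 of 2227 on Day 4 and 10 of 1742 on Day 7 at equal depth, and 0 of 794 on Day 14, which allows up to 0.378% of cells with both UMIs at that depth. Over all UMIs both were seen in 179, 99 and 10 cells, so the 0 does not limit the cells that express both. Pdgfrb was seen in 6.94% of cells with and 5.65% of cells without Pdgfra on Day 4 (1.29 points, −1.50 to 4.81), and in 5.85% and 5.67% on Day 7 (0.183 points, −3.08 to 4.95). Both intervals hold 0. Pdgfc and Pdgfd were too scarce for firm values, with 7 of 53 cells with Pdgfc and 10 of 60 cells with Pdgfd holding Pdgfra on Day 4 after thinning. Among ligands, Pdgfa was seen in 11 of 53 Day 4 cells with Pdgfc (20.8%, 10.8–34.1%) and in 251 of 2174 without (11.5%), and in 3 of 60 with Pdgfd (5.00%) against 12.0% without.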

How the data were processed

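The authors made the counts with STAR (genome GRCm38) and Drop-seq tools. The submitters' processing notes name STAR 2.5.2a, Picard 2.6.0 and SAMtools 1.2. The deposited values are raw UMI counts without normalization, after the study's filter that dropped cells under 500 genes or over 10% mitochondrial UMIs. Counting at the 3′ end gives no length-scaled level, so levels between days and clusters were compared within each gene. Where UMIs of different genes stand side by side, as in the makeup of the receptor UMIs, they count captured transcripts only. In the merged table, 495 columns carry a name that matches none of the samples and were not used. Of the 24698 rows, 0% named no gene.

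Here, counts were summed per day or cluster, scaled to CPM and given exact 95% intervals. A zero was bounded by 3 counts. Ratios carry the exact binomial interval of their UMIs, and differences of shares combine the intervals of both shares. A gene at least 2-fold apart with at least 20 UMIs over both days counted as called. Clusters came from Seurat 5.3.0 in R 4.3.3 (20 components, resolution 0.8). A name needed 3 markers, each with at least 10 UMIs and at 1.5 times the level of the other cells. Clusters 5 and 10 met this with 4 interstitial progenitor markers each but are called by number. Cluster 11 met it for several lists and was given no name. Scrublet (scanpy 1.11.5) called 0, 2 and 1 cells and so did not work here. No doublets were removed in the values shown, and the 6% of cells with the highest scores per day were left out as an alternative. Thinning used seed 1. Python 3.11.15, numpy 2.4.6, scipy 1.17.1, pandas 2.3.3 and matplotlib 3.10.9 were used. The fold rule and intervals were tested on data simulated with counting error alone. Such data hold no spread between cells or libraries, so the test checks the computation only.

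Named genes are the 6 members, every gene of the 4 lists at least 2-fold apart with up to 4 more per list, the 5 genes most like each member with at least 300 UMIs (Pearson r of log2(CPM + 5)), and 4 culture markers. Genes leading a cluster are named by its 10 leading genes. The members and lists were chosen with earlier results of these data known. The comparisons of members in cells with and without Acta2, Mki67, Star or Cyp17a1 were chosen after the data had been seen. Alternatives were no or a stricter cell filter, median-ratio scaling, equal weight per cell, removal of high doublet scores or of the deepest 5% of cells, other thinning, other clusterings and other limits for the lists.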

Additional observations from a re-analysis of the deposited data

Results flagged for a closer look

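Barcodes outside the study's cell filter, which entered no comparison, also held PDGF counts above the limit that a count of 0 allows (3 UMIs). On Day 4 the 320 such barcodes held 15 Pdgfa, 4 Pdgfd, 20 Pdgfra and 10 Pdgfrb UMIs. On Day 7 the 229 barcodes held 26 Pdgfa, 7 Pdgfra and 4 Pdgfrb UMIs, and on Day 14 the 327 barcodes held 6 Pdgfa and 10 Pdgfra UMIs and 0 of Pdgfrb. As levels, Pdgfa stood at 93.3, 217 and 48.4 CPM in the order of days and Pdgfra at 124, 58.5 and 80.7. The exact Poisson interval of each of these 9 values holds the level of the filtered cells of its day. What these barcodes contain was not tested.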

How the results depend on the processing

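Each day is 1 library, so nothing here measures spread between cultures. No paired analysis was possible because each day has 1 library and no result comes from a test. Of 134 recomputed values for the main comparisons, 119 stayed within their interval or within 1.5 times the count. Without thinning, the Pdgfra share in cells with minus without Pdgfa was 6.24 points on Day 4, 5.21 on Day 7 and 17.6 on Day 14, against negative differences at equal depth, and for Pdgfrb it was 9.96 on Day 4 and 14.5 on Day 7. In the largest cluster of Day 7 alone, the Pdgfra difference was 2.71 points (−2.34 to 9.28). With equal weight per cell, Pdgfc on Day 14 stood at 0.130 times Day 7 and Pdgfra on Day 7 at 0.665 times Day 4. At a limit of 1.5-fold, list genes higher and lower were 5 higher from Day 4 to Day 7, 2 higher and 14 lower from Day 7 to Day 14, and 4 higher and 14 lower from Day 4 to Day 14. Median-ratio scaling gave 2 higher from Day 7 to Day 14 and moved all log2 ratios of that comparison by 0.11, and at least 100 UMIs gave 1 higher from Day 4 to Day 14. The cause of these shifts was not tested. Without the highest doublet scores, without the deepest cells and under no or a stricter cell filter, the ratios of member levels between days stayed within their intervals. Under 4 other clusterings the highest over the lowest cluster for Pdgfra on Day 14 was 3.41 to 3.44, and r of Pdgfa with Pdgfra was −0.69 to −0.67. Leaving out barcodes shared between libraries gave no value, since there were 0. Few UMIs or cells lie behind the Pdgfb, Day 14 Pdgfrb and Day 14 co-detection values.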
